A study of Homo sapiens with 3 samples.

Results

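The transcripts of translation initiation and elongation factors were examined in an eCLIP experiment on RBM17, a splicing factor that takes part in 3′ splice site recognition. The group comprised the protein-coding genes of GENCODE v44 with a symbol starting EIF or EEF, without the 3 eIF4A helicases, that carried at least 1 cluster in RBM17 eCLIP replicate 2. Of 69 such symbols, 58 had a cluster and 11 had none (EIF4E3, EIF4E1B, EIF4EBP3, EIF5A2, EIF5AL1, EIF3CL, EIF1AY, EEF2KMT, EEF1AKMT3, EEF1AKMT4 and EEF1AKMT4-ECE2). The 58 members stand among 9079 protein-coding genes and 10872 genes in all with a replicate 2 cluster. A gene's span ran from its first to its last replicate 2 cluster, and replicate 1 clusters and reproducible peaks on the same strand were counted within it.

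The cells were K562, an established chronic myelogenous leukemia line, without genetic change or drug treatment. RNA was crosslinked to protein by UV light and precipitated with a mixture of RBM17 antibodies in 2 replicate libraries, and 1 size-matched input library was taken from the lysate before washing. The labels do not say whether the replicates came from separate cultures. Positions are on hg19 unless stated otherwise.

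Initiation factors bring the small ribosomal subunit with its initiator tRNA to the capped mRNA, select the start codon and join the large subunit. Elongation factors then deliver aminoacyl-tRNA and move the ribosome along the message. The mRNAs of several of these proteins carry a 5′ terminal oligopyrimidine tract, a C at the cap followed by an unbroken run of pyrimidines, through which their translation responds to growth signals.

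The sequences shown are annotated transcript starts, where such a tract would stand. EEF1A1 and EEF2 are shown because they held the most replicate 2 reads apart from EIF2B5, whose span took in other genes, and EIF5 and EIF4G2 because most of the clusters in the first kb of their spans were enriched over the input. A span begins at the first replicate 2 cluster, which need not be the transcript start. Each run holds the first 30 bases from a RefSeq start on GRCh38.p14, 5′ to 3′, and the capitals mark a C at the first base with at least 4 following pyrimidines.
EEF1A1, chr6:73521003-73521032, minus strand: CTTTTTCgcaacgggtttgccgccagaaca
EEF2, chr19:3985434-3985463, minus strand: CTCTTCCgccgtcgtcgccgccatcctcgg
EIF5, first entry, chr14:103334237-103334266, plus strand: agtcagagcgagaacattccagaggtgagt
EIF5, second entry, chr14:103334888-103334917, plus strand: ggccgtgtgtcgcttcccggctgtgcaccc
EIF4G2, first entry, chr11:10807967-10807996, minus strand: acttccctaacttgcgcctgggtgggagga
EIF4G2, second entry, chr11:10808897-10808926, minus strand: gccagcagtgagtcggagctctatggaggt

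The EEF1A1 and EEF2 runs open with such a tract and the EIF5 and EIF4G2 runs do not. In the RefSeq promoter table, 47 of the 58 members were matched, with 62 entries, and 12 entries (19.4%) began with the tract on the sense strand, against 1429 of 35116 entries (4.07%) for all genes. The members with the tract were EEF1A1, EEF1B2, EEF2, EIF2A, EIF2D, EIF2S3, EIF2S3B, EIF3D, EIF3F, EIF3K, EIF3M and EIF4B. Of these 12 genes, EEF1A1 was the 1 with a reproducible peak, beside 6 of all 58 members (10.3%). Among all protein-coding genes with a replicate 2 cluster the share was 4.52%. With 12 genes, the count is too small to set apart from these shares. A match gives the letters of the annotated start and not the start used in K562.

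Replicate 2 was deposited as clusters with read counts and peak caller p-values, and its 58 members held between 3 and 1230 reads, with a median of 79 against a median of 38 for all protein-coding genes with a cluster. The members' 905 clusters covered 879 intervals, since some were listed for more than 1 gene, and these intervals contained 10091 of the 1336569 reads in all replicate 2 clusters, which is 0.755% (95% Clopper-Pearson interval 0.740 to 0.770%, counting error only). More of a transcript and more binding per transcript cannot be told apart in these reads, which were not set against the input. As a check of the label, all 9 K562 and erythroid marker genes had clusters, with 19 to 1553 reads, and of the markers of other lineages CD3E and ALB had none, EPCAM had 11 reads and PTPRC, a marker of blood cells in general, had 102.

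Replicate 1 was deposited as clusters with a log2 fold over the input and a −log10 p, without read counts. A cluster is called passing when both values were at least 3, which matches the lowest values of the list of 866 reproducible peaks. Within the members' spans, 121 of 1055 replicate 1 clusters passed (11.5%), against 5.35% of all 137095 clusters. On the opposite side, 232 (22.0%) lay below 0, that is with more signal in the input than in the precipitate, against 11.4% of all clusters. The set of all clusters was not limited to gene spans and was not matched to the members on reads. The members' median log2 fold was 1.41 with a range of −3.17 to 5.89, and the median of all clusters was 1.51. The lower quartile was 0.19 for the members and 0.68 for all clusters. By gene, among those with at least 10 replicate 1 clusters, the median of the genes' medians was 0.99 over 39 members and 1.51 over 3768 protein-coding genes.

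Of the 58 members, 19 (32.8%) had a passing replicate 1 cluster, against 18.5% of all protein-coding genes with a replicate 2 cluster. A reproducible peak lay in 6 members (10.3%), against 4.52% of those genes. The shares differed with reads. Among the 27 members with at least 100 replicate 2 reads, 15 (55.6%) had a passing cluster and 5 (18.5%) a peak, where the share of all such genes was 47.6% and 17.1%. Of the 31 members under 100 reads, 4 (12.9%) had a passing cluster. The share of all genes under 100 reads was not computed, so this count has no background. At 100 or more reads, the share of members with a peak was near that of all such genes. Within that group the genes were not matched on reads.

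**Figure D1:**
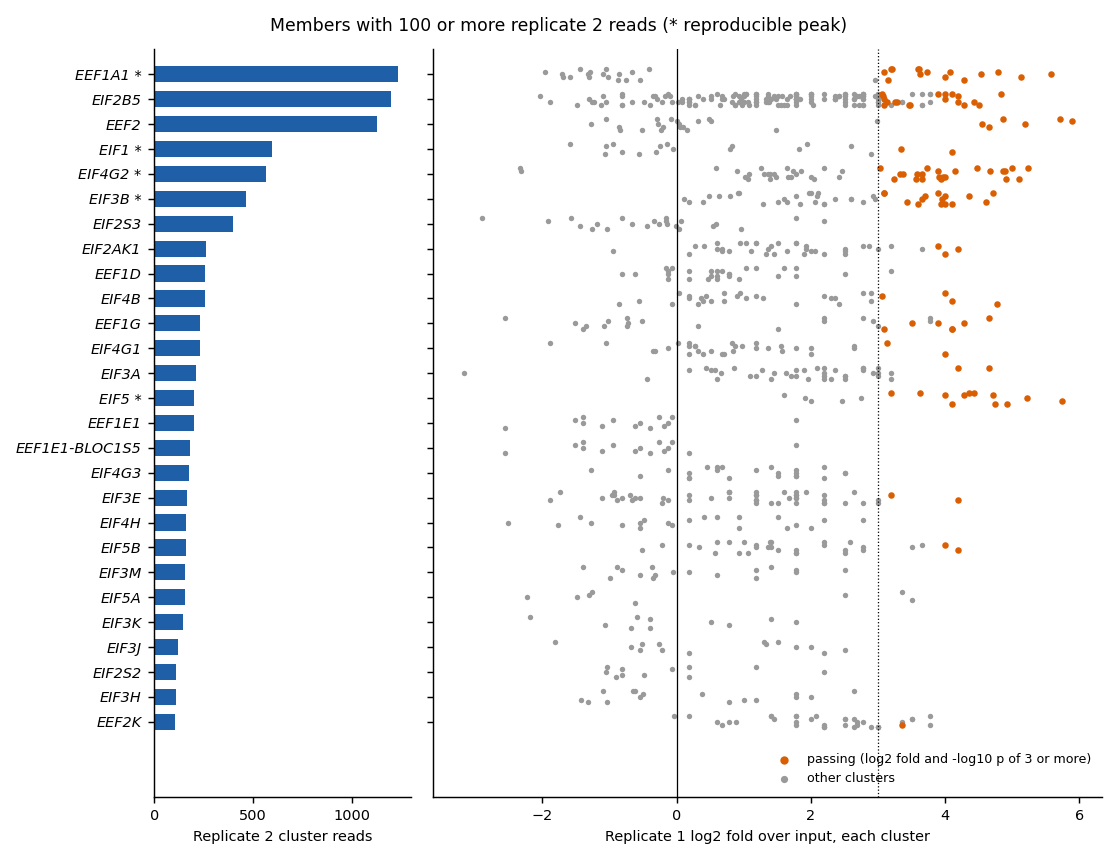
Bars give the replicate 2 cluster reads of the 27 members with at least 100 reads, and points give the replicate 1 log2 fold over input of every cluster in the gene's span, orange where log2 fold and −log10 p were both at least 3. EIF5 lies almost wholly to the right, EEF1E1 almost wholly left of 0, and EEF1A1 on both sides with an empty middle.

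The 6 members with a peak were EEF1A1, EIF1, EIF3B, EIF3G, EIF4G2 and EIF5, and they held 69 of the 121 passing clusters (57.0%). They carried 14 reproducible peaks with log2 folds of 3.30 to 4.64 over the input and a median of 4.15. All 14 overlapped a passing replicate 1 cluster, and its fold exceeded the fold listed for both replicates at 13 of them. The list was drawn from both replicates, and 9 of the 14 intervals were those of replicate 1. The overlap is therefore no independent support. The overlapping replicate 2 clusters held 11 to 67 reads. By the first region annotated, peaks lay at 5′ splice sites in EIF3G, EIF4G2 and EIF5 and in the 5′-UTR in EEF1A1 and EIF5. In EIF1, EIF3B and EIF5 they lay in introns near an exon. Some peaks had a further region, among them the 5′-UTR for a splice site peak of EIF4G2 and of EIF5. The folds have no replicate error, since 1 fold was given per peak.

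**Figure D2:**
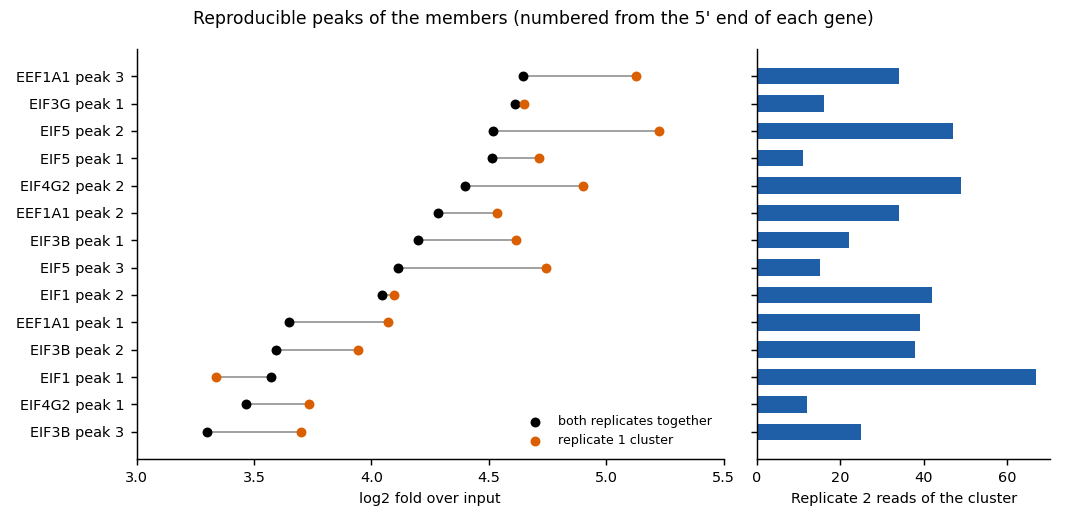
Points give the log2 fold over input of each of the 14 reproducible peaks, black for the value listed for both replicates and orange for the overlapping replicate 1 cluster, and bars give the reads of the overlapping replicate 2 cluster. Replicate 1 was the higher at every peak except 1 of the 2 in EIF1.

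Start site selection and subunit joining was the role group with the most peaks, 5 in 2 of its 7 members, beside 4 in eIF3. Of the 7, 4 had a passing cluster. The counts per role group are small. Their background is the 18.5% (passing cluster) and 4.52% (peak) of all protein-coding genes with a replicate 2 cluster. EIF5, which promotes GTP hydrolysis by eIF2 at the start codon, held 203 reads in replicate 2. In replicate 1 its 17 clusters ran from 1.60 to 5.74 on the log2 scale, 12 of them passed and none lay below 0. Its median of 4.10 was at the 99.5th percentile of the 3768 protein-coding genes with at least 10 replicate 1 clusters, the highest of the 39 members so ranked. All 7 clusters in the first 1 kb of its span passed.

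The 3 EIF5 peaks on the plus strand of chromosome 14 followed each other from the 5′ end. The peak at chr14:103801171-103801231 was annotated to a 5′ splice site and also to the 5′-UTR. Its log2 fold was 4.52 for both replicates and 4.71 in replicate 1, with 11 reads in replicate 2. The peak at chr14:103801381-103801470 in the 5′-UTR had the same listed fold of 4.52 with 5.23 in replicate 1 and 47 reads. An intronic peak at chr14:103802622-103802677 had 4.11, 4.74 and 15 reads. The EIF5 cluster with the largest replicate 1 fold, 5.74, overlapped no replicate 2 cluster of the gene and was not in the reproducible list.

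EIF1, which keeps the scanning ribosome open until the start codon is met, had 593 reads over a span of 2720 bp. Of its 18 replicate 1 clusters, 2 passed and 10 lay below 0, the lowest at −1.59. Both passing clusters met peaks in introns near an exon on the plus strand, at chr17:39845441-39845558 (log2 fold 3.57 for both replicates, 3.34 in replicate 1, 67 reads) and chr17:39845700-39845743 (4.04, 4.10 and 42 reads). Both lay within 1 kb of the start of the span, and none of the 11 clusters beyond it passed.

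EIF1B, whose protein shares 92.0% of its residues with EIF1, gave another pattern at much lower reads. It had 28 reads in 3 replicate 2 clusters, and 4 of its 8 replicate 1 clusters passed, with log2 folds of 3.69, 4.10, 4.10 and 5.14. None of the 4 overlapped a replicate 2 cluster, none of the 8 lay below 0, and no reproducible peak was listed. The remaining member with passing clusters in this group was EIF5B, the GTPase of subunit joining, with 2 of 31 passing, at 4.00 and 4.19.

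eIF3, the large scaffold that links the small subunit to the mRNA, had 13 members, of which 5 had a passing cluster and 2 a peak. EIF3B, a core subunit, held 464 reads in 35 clusters. Of its 42 replicate 1 clusters, 15 passed at 3.10 to 4.71 and none lay below 0. Its passing clusters stood in the interior, 9377 to 20348 bp from the start of a span of 25565 bp.

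The 3 EIF3B peaks on the plus strand of chromosome 7 were annotated to introns near an exon, 1 of them also to a 3′ splice site. The peak at chr7:2406361-2406425 had a log2 fold of 4.20 for both replicates, 4.62 in replicate 1, and 22 reads. The peak at chr7:2406471-2406540, the 1 also at the 3′ splice site, had 3.59, 3.94 and 38 reads. The peak at chr7:2411961-2412037 had 3.30, 3.70 and 25 reads, the lowest listed fold among the 14. EIF3G, an RNA-binding subunit, was the member with a peak and the fewest reads, 89, and its peak at the 5′ splice site chr19:10227405-10227471 on the minus strand had 4.61, 4.65 and 16 reads.

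Other eIF3 subunits had few passing clusters. EIF3A, the largest scaffold subunit, had 2 of 41, at 4.19 and 4.65. EIF3E had 2 of 50 and EIF3D, which can bind the cap, 1 of 17. EIF3M with 158 reads, EIF3K with 147 and EIF3J with 121 had none, and 9 of 17, 6 of 10 and 6 of 14 of their clusters lay below 0.

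Among the cap-binding complex and its cofactors, 3 of 7 members had a passing cluster and 1 a peak. EIF4G2, an eIF4G relative that lacks the cap-binding protein's site, had 565 reads and the most passing clusters of any member, 23 of 48, at 3.02 to 5.23. In the first 1 kb of its span 9 of 10 passed. Only 3 of the 23 overlapped a replicate 2 cluster. The EIF4G2 peaks on the minus strand were annotated to 5′ splice sites. The peak at chr11:10829006-10829018, also annotated to the 5′-UTR, had a log2 fold of 3.47 for both replicates, 3.73 in replicate 1, and 12 reads. The peak at chr11:10821499-10821591, also annotated to an intron near an exon, had 4.40, 4.90 and 49 reads.

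The 2 EIF4G2 clusters below 0, at −2.33 and −2.31, lay over SNORD97, a small nucleolar RNA inside the gene. Replicate 2 clusters over it held 158 of the 565 reads, so 407 remained without them. Similar pairs were seen in EIF3A over SNORA19 (log2 fold −3.17, the lowest of any member cluster, 23 reads), EEF2 over SNORD37 (−1.27, 49 reads) and EEF1B2 over SNORA41 (−0.61, 19 reads). Reads of the host and of the small RNA cannot be told apart in these clusters.

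EIF4B, which stimulates the eIF4A helicase, had 255 reads, of which 84 stood in 1 cluster near its 3′ end. The replicate 1 fold there was −0.56. Its 4 passing clusters of 30 lay elsewhere, with folds up to 4.77, and none overlapped a replicate 2 cluster. EIF4G1, the main eIF4F scaffold, had 230 reads and 2 passing clusters of 32, at 3.13 and 4.00. All of these reads lay in the wide span of EIF2B5, and both passing clusters were also counted for EIF2B5. EIF4G3 with 174 reads and EIF4H, another eIF4A cofactor, with 160 had no passing cluster, and their highest folds were 2.51 and 2.77.

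Among the 9 members grouped by symbol as elongation factors, 3 had passing clusters. EEF1A1, which delivers aminoacyl-tRNA to the ribosome, had 1230 reads in 25 clusters of 22 to 112 reads, or 395 reads per kb of span. Its 33 replicate 1 clusters fell into separate sets. In the first, 15 passed at 3.08 to 5.58, and in the second, 17 lay between −1.96 and −0.41, with 1 cluster between the sets. In the first 1 kb of the span 11 of 13 passed, and in the remainder 4 of 20 passed while 15 lay below 0. Replicate 2 reads ran the other way, with 271 in the first kb and 959 beyond it. All 17 clusters below 0 overlapped a replicate 2 cluster and 5 of the 15 passing ones did.

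The 3 EEF1A1 peaks on the minus strand of chromosome 6 were annotated to the 5′-UTR and covered 143 bp from the first to the last base. From 5′ to 3′ their log2 folds for both replicates were 3.65 at chr6:74230308-74230359, 4.28 at chr6:74230283-74230307 and 4.64 at chr6:74230217-74230265. Replicate 1 gave 4.07, 4.54 and 5.13 at the same intervals. The replicate 2 clusters with the largest overlap held 39, 34 and 34 reads. The first peak also met the cluster of the second. The fold rose along the gene in both lists, which are not independent. These peaks began 386, 438 and 480 bp into the span. The 5′-UTR label is that of the study's annotation. In GENCODE v44, 6 of 6 EEF1A1 transcripts from the start shown above had a first exon of 33 bases. The 143 bp that the peaks covered exceed this exon, so the peaks did not all lie within it. Whether they lay in the intron that follows it was not tested, since peaks and exons were on different builds.

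EEF1A2, the copy of EEF1A1 used in muscle and neurons, shares 92.4% of its protein residues and had 3 reads in 1 cluster and no replicate 1 cluster. Of 49 annotated genes named as EEF1A1 pseudogenes, 0 had a replicate 2 cluster. Reads from such near-identical copies may have been assigned to either gene.

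EEF2, the translocation factor, had 1125 reads, or 161 per kb of span, and no peak. Its 6 passing clusters had log2 folds of 4.55 to 5.89, the upper value being the highest of any member cluster, and none of the 6 overlapped a replicate 2 cluster. Another 10 of its 26 clusters lay below 0, and 8 of those 10 overlapped a replicate 2 cluster. EEF1G, a subunit of the exchange factor for eEF1A, had 232 reads, with 7 of 26 clusters passing at 3.10 to 4.65 and 10 below 0, and again none of the 7 passing clusters overlapped a replicate 2 cluster. All of its replicate 2 clusters also lay in the span of an overlapping gene, ENSG00000255508.

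**Figure D3:**
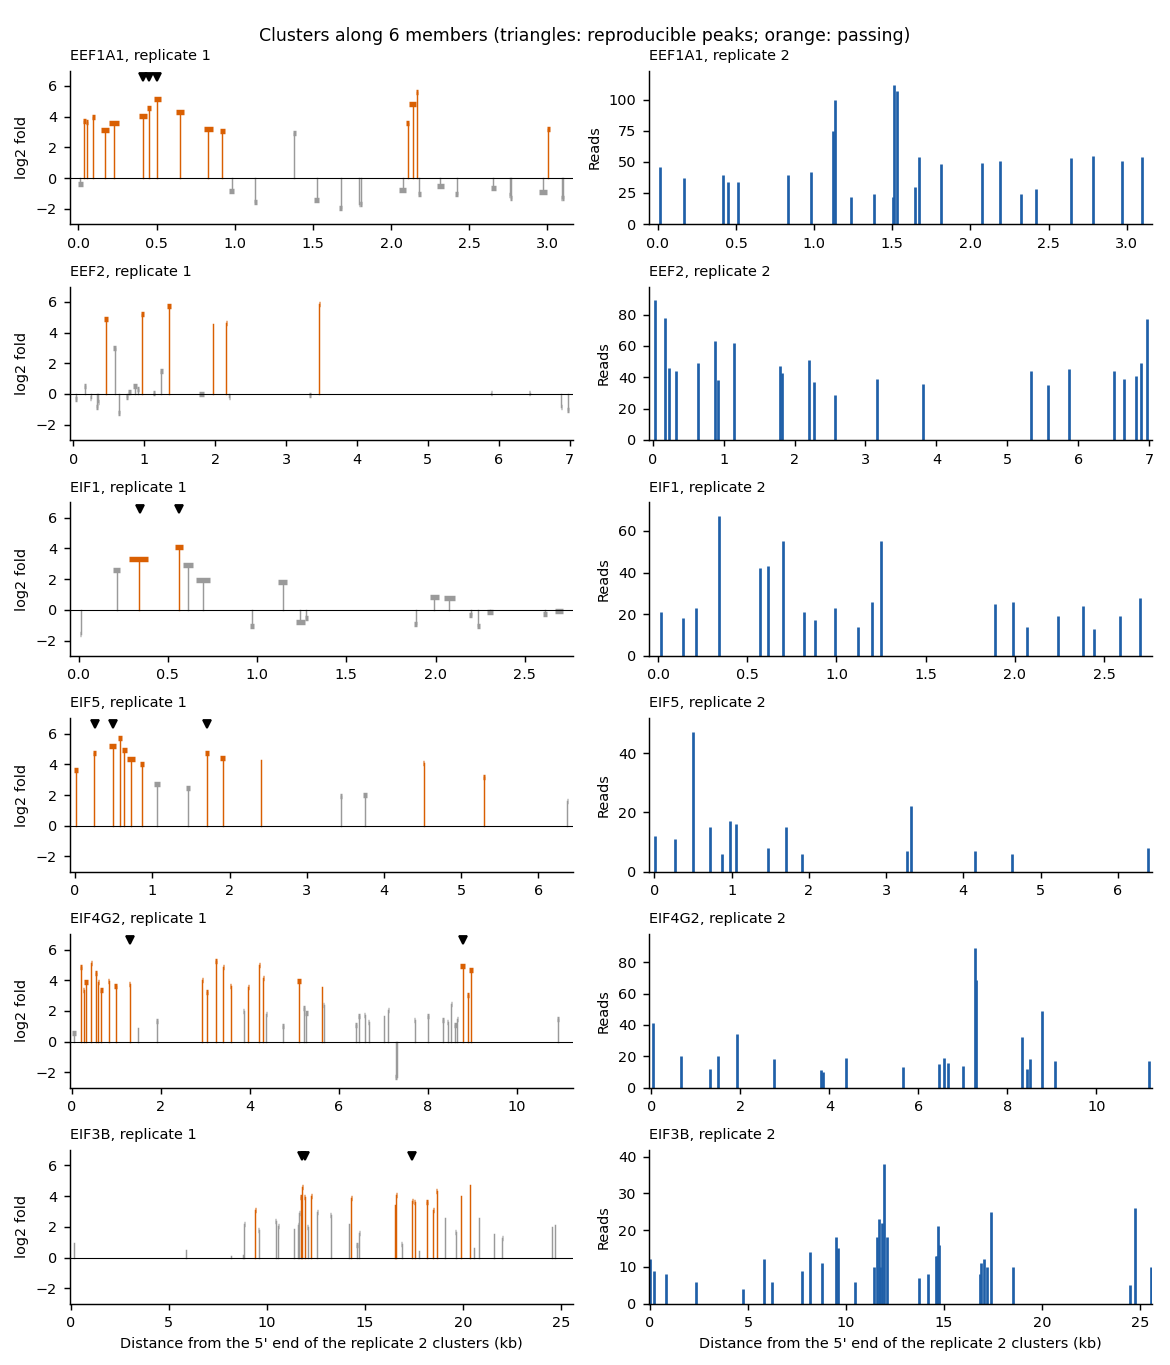
For 6 members, lines give the log2 fold of each replicate 1 cluster (left, orange where passing, triangles at reproducible peaks) and the reads of each replicate 2 cluster (right) by distance in kb from the 5′ end of the span. In EEF1A1 the 5′ kb holds 11 of the 15 passing clusters, while EIF3B has its passing clusters in the interior and EIF5 has none below 0.

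The other members grouped as elongation factors had no passing cluster. EEF1D, also of the exchange factor, had 257 reads and 28 clusters that reached 3.19, below the limit on −log10 p. In EEF1E1, a scaffold protein of the tRNA synthetase complex, 13 of 14 clusters lay below 0. EIF5A, the hypusine-carrying factor that relieves stalled ribosomes, had 157 reads and 5 of 8 below 0.

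Of the 10 members grouped by symbol with eIF2 and its exchange factor, EIF2A and EIF2D among them, 1 had passing clusters and none a peak. EIF2S3, the GTP-binding subunit of eIF2, had 396 reads and 16 of 23 replicate 1 clusters below 0, with a highest fold of 2.19. Of these reads, 176 lay in the span of another gene, and 11 of the 23 clusters lay in no other span. The EIF2S3 retrogene EIF2S3B, with 98.5% protein identity, had 4 reads. The member with passing clusters was EIF2B5, the catalytic subunit of the exchange factor, with 19 of 170, but its span covered 242691 bp where the gene covers 11090 bp in GENCODE v44. Of its 1198 reads, 1095 lay in the spans of other genes, EIF4G1 and PSMD2 among them, and 103 outside them. Of the 19 passing clusters, 6 lay in no other span.

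EEF1E1-BLOC1S5, a readthrough gene, likewise had 23 of its 25 replicate 2 clusters within the span of EEF1E1, and 20 of them were listed for both genes. Without it and EIF2B5 the members kept 104 passing clusters, in 18 genes.

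The kinases that phosphorylate eIF2 had 1 of 4 members with passing clusters, EIF2AK1, the heme-regulated kinase of erythroid cells. It had 263 reads in 34 clusters, and 3 of 39 replicate 1 clusters passed, at 3.89, 4.00 and 4.19. The other 3 kinases had 3 to 6 reads. The 3 members that bind or carry eIF4E had no passing cluster, and in EIF4EBP2, a repressor of cap-dependent translation, 8 of 10 clusters lay below 0. Of 3 enzymes that modify elongation factors, EEF2K, the kinase of eEF2, and EEF1AKMT2, a methyltransferase of eEF1A, each had 1 passing cluster.

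Over the pooled clusters of the members, the share that passed differed along the span. Each span was divided into 5 equal sections, without EIF2B5 and EEF1E1-BLOC1S5. In the 5′ section 39 of 209 clusters passed (18.7%), and the shares were 17.2%, 8.70%, 10.9% and 3.83% in the sections that followed. The 5′ share rested on 4 genes, EIF4G2 with 10 of the 39, EEF1A1 with 8, EIF5 with 7 and EEF1G with 5. Without them the shares from 5′ to 3′ were 5.39%, 6.73%, 7.97%, 8.64% and 2.71%. In the 3′ section 36.6% of 235 clusters lay below 0, against 16.8 to 22.7% in the others, and the median log2 fold there was 0.70 against 1.36 to 1.77. Without the same 4 genes, 34.8% lay below 0 in the 3′ section. Clusters below 0 occurred there in 28 of the 43 members that had a cluster in it. Clusters of 1 gene are not independent, and this was not set against other genes.

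**Figure D4:**
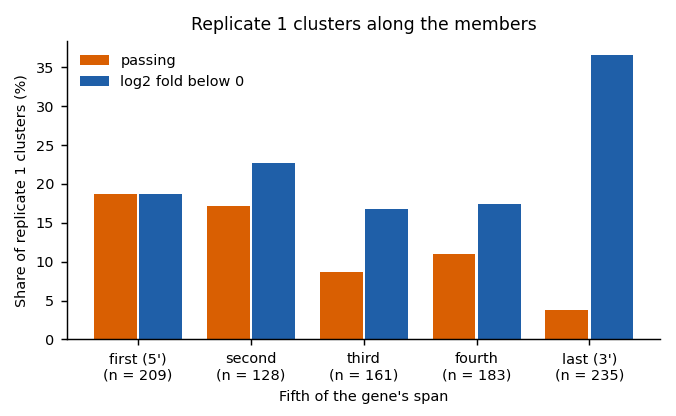
Bars give the percentage of the members' replicate 1 clusters that passed (orange) or lay below 0 (blue) in 5 equal sections of the span from 5′ to 3′, with the number of clusters under each pair. Passing clusters fall to 3.83% and clusters below 0 reach 36.6% in the 3′ section, and 30 of the 39 passing clusters in the 5′ section belong to 4 genes.

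Of the members' 905 replicate 2 clusters, 407 (45.0%) overlapped a replicate 1 cluster, against 31.9% of all replicate 2 clusters. The overlap differed by fold. Of the members' passing clusters 34 of 121 (28.1%) overlapped a replicate 2 cluster, against 37.9% of all passing clusters. Of their clusters below 0 it was 147 of 232 (63.4%), against 40.2% of all clusters below 0. In the members, clusters with more signal in the input than in the precipitate were those with the larger share seen in both replicates. Replicate 2 clusters carry no comparison with the input.

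Of 23 listed partners of translation outside these symbols, 22 had a replicate 2 cluster and 10 of these had at least 100 reads. Of the 22, 8 (36.4%) had a passing cluster and 2 (9.09%) a peak, against 18.5% and 4.52% of all protein-coding genes with a replicate 2 cluster. These shares are not matched to the 47.6% and 17.1% of genes with at least 100 reads. Among the 10 partners with that many reads, ETF1, GCN1, HBS1L, LARP1, PABPC4 and TPT1 had a passing cluster and PABPC4 a peak. The peaks were in PABPC4, a poly(A)-binding protein, with 4, and DHPS, the enzyme of the first hypusine step on eIF5A, with 1. PABPC1, the main poly(A)-binding protein, had 856 reads and no passing cluster. TPT1, a growth-related protein whose mRNA has a terminal pyrimidine tract, had 161 reads and 6 of 11 clusters passing.

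EIF3B, EIF4B, EIF4H, EIF2D and EIF2AK4 were, by name, among the genes with changed splicing after RBM17 knockdown. These were 5 of 58 members (8.62%), where 813 of 9079 protein-coding genes with a replicate 2 cluster (8.95%) were on the list, so the share was near the background. EIF2D, a ribosome-binding initiation factor, had 83 reads and no passing cluster. EIF2AK4, the amino acid-sensing kinase, had 3 reads and no replicate 1 cluster. EIF3B alone of these genes had a reproducible peak.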

How the data were processed

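RBM17 eCLIP clusters of K562 cells (2 replicates, 1 size-matched input) were used as deposited. Per the labels, reads were trimmed with cutadapt and aligned with STAR, with versions not given in the sources used here. Coordinates were on hg19. The titles number the replicates differently from the descriptions, which were followed. For replicate 1 and the reproducible list, the authors deposited the log2 fold over input and the −log10 p of each cluster, and for replicate 2 the peak caller's p-value and the read counts per cluster with its gene. The depth of replicate 1 is unknown. Region words came from the study's annotation of its peaks.

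Clusters were joined by at least 1 bp on the same strand in Python 3.11.15 (pandas 2.3.3), Clopper-Pearson limits came from scipy 1.17.1, and the overlap code was tested on simulated data. No test was run, since 1 group without replicated input gives no comparison, and intervals cover counting error only. Genes were named if they had a reproducible peak, were among the 10 with most replicate 2 reads, or had among the 5 largest passing folds without a peak. Of the 12 members with at least 100 reads and no passing cluster, the 10 with most reads were named. Members on the changed splicing list or with a near-identical copy were named as well. EIF5B, EIF3E, EIF3D, EIF4G1, EIF4EBP2, EEF2K and EEF1AKMT2 were named after their values were seen, to complete their role groups, and EEF1B2 for its small nucleolar RNA. Protein identity was computed from GENCODE v44 coding sequences. The members and lists were chosen with earlier results of these data known. The alternative without EIF2B5 and EEF1E1-BLOC1S5 was added after seeing the data, as were the shares along the span without the 4 genes with the most passing clusters at the 5′ end. Sequence of hg19 was not used here, so no peak sequence is given.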

Additional observations from a re-analysis of the deposited data

How the results depend on the processing

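The count of 6 members with a reproducible peak was 5 or 6 under the other settings of fold, p, overlap, gene assignment, role and reads. Without 1 of the replicates, it ran from 19 (passing clusters of replicate 1 alone) to 28 (replicate 2 clusters with p of at most 1e-10). The 14 peaks became 9 at a log2 fold of at least 4 and 11 to 14 otherwise. The 19 members with a passing cluster became 8 when the cluster had to overlap a replicate 2 cluster of the gene, and 14 to 18 otherwise. The median log2 fold of 1.41 became 3.62 for clusters with −log10 p of at least 3, 0.59 for clusters that overlap a replicate 2 cluster and 0.85 as a median of the members' medians. The overlap of 45.0% became 34.4% when 50% of the cluster had to be covered and 76.3% at p of at most 1e-10. The read share of 0.755% became 0.721% for intervals of 1 gene, 0.621% at p of at most 1e-10 and 0.668% without EIF2B5 and EEF1E1-BLOC1S5, an alternative chosen after seeing the data. No paired analysis was possible because the series holds 1 group of 2 eCLIP replicates and 1 input. Low reads limit what can be seen in the 31 members under 100 reads.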
